A study of Mus musculus with 35 samples.

Results

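The formins are a family of actin nucleators, and 10 of them were followed here across 35 mouse RNA-Seq libraries: Fmn1, Fmn2, Fmnl1, Fmnl2, Fmnl3, Diaph1, Diaph2, Diaph3, Daam1 and Daam2. They were chosen by symbol, so the group holds 10 of the 55487 genes listed in each of the 4 expression tables, and all 10 were found once in every table. Fmn2 was the reason for choosing the family. In cardiac fibroblasts (CFs) kept with IL-17 it was seen to rise from the lower limit of counting with siRNAs against IAMP (introduced below). That rise is against a control siRNA in the same medium. The values behind that choice are therefore given below as a description, with no test.

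A formin binds the fast-growing end of an actin filament, adds profilin-bound actin to it and builds unbranched filaments, whereas the Arp2/3 complex builds branched ones. The Diaph and Fmnl proteins are held closed until a signal opens them, and the Daam proteins act downstream of Dishevelled in Wnt signalling. Filament growth uses up monomeric actin, which otherwise holds back the MRTF coactivators of the transcription factor SRF, and in fibroblasts this route serves stress fibres, migration and the myofibroblast genes.

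IAMP is a micropeptide encoded by the mouse gene 4930523C07Rik. Primary CFs from adult mice, which are a plated, adherent fraction and not a cell line, were transfected with a control siRNA (si-NC, called Scrambled) or with 1 of 2 siRNAs against IAMP (si-IAMP-1, called siR-1, and si-IAMP-2, called siR-2). These cells were untreated, given IL-17, or given TGF-β, with 3 libraries in each of the 9 groups, 27 in all. For the IL-17 cells the labels give 24 hours of siRNA followed by 24 hours of IL-17. Whole hearts came from C57BL/6 mice aged 8 weeks under basal conditions, 4 HET and 4 IAMP-KO, where a CRISPR-made frameshift removes the micropeptide. The KO line was made with 1 guide RNA. The HET controls carry 1 copy of that frameshift, so no wild-type heart was compared.

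The 27 CF libraries held 104139670 to 119232309 estimated counts and the 8 hearts 23497027 to 23857313 counts. In the CF tables a single read pair is worth up to 6 estimated counts, so 18 estimated counts, about 3 read pairs, was taken as the floor, and 3 counts in hearts. Nothing in the labels says that the libraries of a group came from separate isolations, so the p-values measure the spread between these libraries. Levels are given as CPM, the count scaled to the library size after TMM normalisation. The targeted transcript fell in every CF table. The 4930523C07Rik level in untreated cells was 21.9, 22.6 and 25.7 CPM with Scrambled, 2.52, 3.52 and 2.97 in siR-1, and 1.76, 1.84 and 1.87 in siR-2 cells. The fall with siR-1 was -2.97 ± 0.112 (log2, SE) in untreated and -2.23 ± 0.105 in TGF-β cells, and with siR-2 it was -3.69 ± 0.117 and -2.65 ± 0.108. In hearts its level was 17.03 ± 1.27 CPM in HET and 16.05 ± 0.938 in KO (SD, n = 4 each), where a frameshift need not lower the RNA and the level checks no label. Fibroblast markers were abundant, since Col1a1 was at 3674 to 3779 CPM and Pdgfra at 343 to 361 in untreated Scrambled cells. Myh6, the cardiomyocyte myosin, was at 0 in those 3 libraries, while Tnnt2 stood at 88.7 to 97.3 CPM, and Ptprc, the pan-leukocyte marker, at 0.382 to 0.906.

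Promoter sequence is shown for Fmn2, the formin behind the choice of the family, and for Diaph3. The estimates of Diaph3 were below 0 with both siRNAs in all 3 CF tables, as were those of Daam2, Fmnl1 and Fmnl3. Under TGF-β, Daam2 and Fmnl1 did not pass by edgeR with siR-1 (adjusted p = 0.106 and 0.0937). Fmnl3 did not pass there with siR-2 (-0.036 ± 0.0517, adjusted p = 0.686). Fmn2 lies on the plus strand of chromosome 1 (GRCm38, 174501825 to 174822729, GENCODE vM21) and Diaph3 on the minus strand of chromosome 14 (86655367 to 87141235). RefSeq promoter windows (GRCm38.p6, 250 bases before to 50 after the start site) were held for 9 of the 10 formins. Each stretch is written 5′ to 3′ on the strand of its gene, and the capitals mark a CCAAT box, read as CCAAT or as its reverse complement ATTGG.
Fmn2, chr1:174501645-174501669: gtccccacccCCAATtatgaagtac
Fmn2, chr1:174501768-174501792: ctgtgcagccATTGGtggggagtgc
Diaph3, chr14:87141319-87141343: ggccgaagggCCAATcaggcccagg
Diaph3, chr14:87141249-87141273: gcggcgcgggATTGGctgaccgggc
Diaph3, chr14:87141205-87141229: tttcagatagATTGGcccagccgtg
The Fmn2 window held 2 CCAAT boxes and the Diaph3 window 3. Of all 32851 promoter windows of this length, 37.4% held at least 1, 11.7% at least 2 and 3.37% at least 3. Diaph3 also held the E2F-type string GGCGGGA, which 11.3% of windows hold on either strand, and its capitals here mark that string.
Diaph3, chr14:87141222-87141248: tgcttgtggtGGCGGGAgatttcagat
Neither window held the AP-1-type TGANTCA (7.81% of windows), the NF-κB-type motif, which is GGGA, any 4 bases and CC (20.7%), the HIF-type ACGTG (19.6%) or a CArG box, the SRF site (1.63%), nor the cell cycle string TTTGAA (17.9%). The NRF2-type TGACNNNGC (12.4%) was found in the Diaph3 window and not in the Fmn2 window. The motifs were chosen with the expression values known, and a match is only a description of these letters.

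Fmn2 is a formin of oocytes and neurons, where it serves spindle positioning and growth cones. In untreated Scrambled cells it was barely above the floor, at 23, 27 and 24 estimated counts (0.189, 0.224 and 0.192 CPM). In untreated siR-1 cells it was at 0.511, 0.259 and 0.347 CPM, and in siR-2 cells at 0.901, 0.783 and 1.02 CPM. All 6 knockdown libraries lay above all 3 Scrambled libraries, and the lowest siR-2 library lay above the highest siR-1 library. Fmn2 rose with siR-2 by 2.14 ± 0.346 on the log2 scale (adjusted p = 5.47e-05), a ratio of mean CPM of 4.47. With siR-1 the difference was 0.87 ± 0.347, a ratio of 1.84, and it did not pass the threshold (adjusted p = 0.057). Without siR-1 replicate 2 it did pass (1.08, adjusted p = 0.0272), as it did when genes needed 10 counts in every library (adjusted p = 0.0459). Between the siRNAs, Fmn2 was higher with siR-2 by 1.27 ± 0.332 (adjusted p = 0.00447).

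TGF-β, the factor that turns fibroblasts into contractile myofibroblasts, gave libraries whose siRNA contrasts were not the ones that chose the family. Here Fmn2 was at 0.462, 0.417 and 0.414 CPM with Scrambled, at 1.71, 1.45 and 0.898 with siR-1, and at 1.66, 1.66 and 2.23 with siR-2. Every knockdown library was above every Scrambled library, and the siR-1 and siR-2 ranges overlapped. Fmn2 rose by 1.64 ± 0.266 with siR-1 (adjusted p = 0.000186) and by 2.096 ± 0.267 with siR-2 (adjusted p = 1.01e-05), which are ratios of mean CPM of 3.14 and 4.28. The difference between the siRNAs, 0.45 ± 0.2498, did not pass (adjusted p = 0.227). The siRNA effects under TGF-β minus those in untreated cells were 0.77 ± 0.427 for siR-1 (adjusted p = 0.251) and -0.065 ± 0.399 for siR-2 (adjusted p = 0.951), so no difference between the media was detected at this depth.

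The IL-17 libraries are the ones that brought Fmn2 to attention. With Scrambled siRNA it was counted at 12, 15 and 8 estimated counts (0.0994, 0.124 and 0.0655 CPM), all under the floor of 18. With siR-1 it reached 133, 119 and 72 estimated counts (1.19, 1.07 and 0.646 CPM), and with siR-2 272, 231 and 216 (2.36, 1.99 and 1.87 CPM). Against the floor, the siR-1 mean was at least 6.52-fold higher and the siR-2 mean at least 13.97-fold higher. Scrambled libraries held about 1.33 to 2.5 read pairs of Fmn2 with IL-17 and 3.83 to 4.5 untreated. The former are under the floor, so no difference between the media is read there. In siR-1 cells Fmn2 was at 0.646 to 1.19 CPM with IL-17 and at 0.259 to 0.511 CPM untreated. In siR-2 cells it was at 1.87 to 2.36 and 0.783 to 1.02 CPM. Each medium has a table of its own, so medium and table cannot be told apart.

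**Figure D1:**
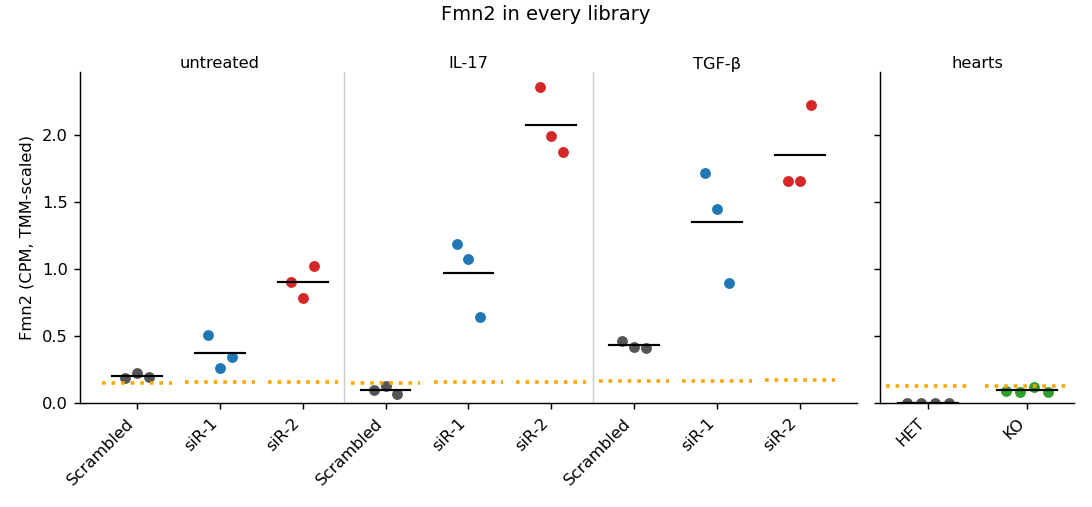
Fmn2 level in CPM (vertical axis) in each of the 27 CF libraries by medium and siRNA, and in the 8 hearts by genotype. Points are libraries, black bars group means, and dotted orange lines the floor of 18 estimated counts (3 counts in hearts): the IL-17 Scrambled points sit under the floor at 0.0655 to 0.124 CPM and the IL-17 siR-2 points at 1.87 to 2.36.

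Even at its highest, Fmn2 made up little of the formin RNA. Levels of different genes were compared as CPM per kb of exon. Fmn2 supplied 0.0288% of the summed level of the 10 formins in untreated Scrambled cells, 0.0117% in IL-17 Scrambled cells and 0.419% in TGF-β siR-2 cells. It ranked last of the 10 in all 3 Scrambled groups. Fmn2 shares no exon base with another annotated gene.

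Several values moved beside Fmn2 in the untreated cells, and their part in its rise was not tested. The 5 Schwann and neural markers, 4 of which passed the filter on low counts, had a summed level of 82.0 to 93.3 CPM with Scrambled, 125 to 131.5 in siR-1 and 179.9 to 184.5 in siR-2 cells. Tubb3, a neuronal β-tubulin that fibroblasts also express, made up most of that sum and rose by 0.64 ± 0.0431 with siR-1 and by 1.17 ± 0.0433 with siR-2. Sox10, which defines Schwann cells, stayed at 0.0481 to 0.255 CPM in the 9 untreated libraries, and Rbfox3, which defines neurons, was at 0 in all of them. In TGF-β cells the same sum went the other way, 62.1 to 71.4 CPM with Scrambled and 44.5 to 49.1 with siR-2, while Fmn2 rose there too. Other marker sums in untreated cells are given in the order Scrambled, siR-1 and siR-2. Those of 5 endothelial genes were 42.9 to 48.0, 38.7 to 41.8 and 36.9 to 38.4 CPM. Those of 5 smooth muscle and pericyte genes, mostly Pdgfrb, were 469.5 to 471.2, 783.4 to 816.9 and 286.6 to 299.2 CPM. Of these 5 genes, 2 rose and 1 fell with siR-1 (median log2 change -0.25), and 0 rose and 3 fell with siR-2. The sums of 5 cardiomyocyte genes, mostly Tnnt2, were 89.6 to 97.7, 41.7 to 46.7 and 27.2 to 32.4 CPM. Those of 6 fibroblast genes were 6495 to 6541, 8076 to 8160 and 5880 to 6101 CPM. In bulk RNA, fewer cells of a type and less RNA per cell cannot be told apart.

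The genes whose level over the 27 CF libraries ran most nearly with Fmn2 were found by Pearson's r of log2(CPM + 0.1), among 13330 genes whose mean level was 1 CPM or more. They were Prdx1 (r = 0.930), a peroxiredoxin that removes peroxides, Esd (0.918), Sqor (0.913), which oxidises sulphide in mitochondria, Gbe1 (0.905), the glycogen branching enzyme, and Tuba4a (0.902), an α-tubulin. Within each single table the r of these 5 genes was 0.914 to 0.991. The 5 genes were picked as the highest over these same libraries, the IL-17 ones included, so the r within a table is no separate evidence. The 27 points share 3 tables and 3 siRNAs, so these values describe shared group differences.

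Diaph3 fell with both siRNAs in untreated and in TGF-β cells. Its protein assembles the contractile ring in dividing cells and filopodia in migrating ones. In untreated cells its level was 98.1, 97.1 and 95.9 CPM with Scrambled, 66.3, 65.4 and 68.9 in siR-1, and 45.1, 43.1 and 43.1 in siR-2 cells. The groups did not overlap, and the siR-2 libraries were the lowest. Diaph3 fell by 0.55 on the log2 scale with siR-1 (SE 0.0369, adjusted p = 4.0e-09) and by 1.16 with siR-2 (SE 0.0374, adjusted p = 1.66e-13), and siR-2 was lower than siR-1 by a further -0.61 ± 0.0373 (adjusted p = 7.24e-10). In TGF-β cells it was at 23.6, 28.7 and 27.7 CPM with Scrambled, 20.7, 21.1 and 18.6 in siR-1, and 15.04, 13.996 and 15.3 in siR-2 cells. There it fell by 0.41 with siR-1 (SE 0.0751, adjusted p = 0.000557) and by 0.85 with siR-2 (SE 0.0759, adjusted p = 1.57e-07). In IL-17 cells the levels were 95.1 to 102.5, 62.3 to 64.1 and 38.7 to 43.9 CPM in the same order of siRNAs.

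The cell cycle genes moved with Diaph3, and their part in its fall was not tested. All 19 genes of that list, mitotic kinases, cyclins and replication factors, fell with each siRNA in untreated and in TGF-β cells. Their summed level in untreated cells was 1982 to 2007 CPM with Scrambled, 1147 to 1243 in siR-1 and 690.5 to 732.2 in siR-2 cells, and in TGF-β cells 472.5 to 483.9, 300.7 to 331.5 and 227.8 to 247.4. In untreated cells their median change was -0.75 for siR-1 and -1.61 for siR-2, and in TGF-β cells -0.55 and -1.02, where the medians over all genes lay between -0.0201 and 0.0135. The largest mean falls were those of Ccnb2 (-1.12 and -1.81 in untreated cells) and Ccna2 (-1.16 and -1.71), the mitotic cyclins. Of the 13329 genes compared over the 27 CF libraries, the 5 most like Diaph3 were Kif11 (r = 0.997), the spindle kinesin, Man2a2 (0.996), a Golgi mannosidase, Pbk (0.996), Bub1 (0.996), a spindle checkpoint kinase, and Top2a (0.996), the mitotic topoisomerase. Of the 3 among them with a promoter window, Top2a held 6 CCAAT boxes, Bub1 2 and Kif11 1. Of all windows, 37.4% held at least 1, 11.7% at least 2 and 3.37% at least 3. Among the formins, the Fmnl3 window also held 2 CCAAT boxes and the string GGCGGGA, and the Fmnl2 window held that string. These matches describe letters only.

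Daam2 and Fmnl1 also fell with both siRNAs in untreated cells, and Fmnl3 fell there by less, as given below. Daam2 links Wnt signals to actin, and in untreated cells it was at 12.2, 11.5 and 11.8 CPM with Scrambled, 5.18, 5.59 and 5.82 in siR-1, and 3.28, 3.54 and 3.02 in siR-2 cells, without overlap between any of the groups. It fell by 1.11 with siR-1 (SE 0.093, adjusted p = 5.65e-08) and by 1.86 with siR-2 (SE 0.0958, adjusted p = 5.38e-11). In TGF-β cells it started lower, at 4.35, 3.25 and 3.55 CPM, and was at 3.07, 2.88 and 2.49 in siR-1 and 1.56, 2.35 and 1.79 in siR-2 cells. Only the change with siR-2 passed there (-0.97 ± 0.175, adjusted p = 0.000372), and the siR-1 change was -0.41 ± 0.172 (adjusted p = 0.106). The effect of either siRNA on Daam2 was smaller under TGF-β than in untreated cells, by 0.69 ± 0.190 for siR-1 (adjusted p = 0.0104) and 0.87 ± 0.193 for siR-2 (adjusted p = 0.00102).

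Fmnl1 is the formin best known from leukocytes. It was at 2.91, 2.88 and 3.53 CPM with Scrambled in untreated cells, 1.29, 1.53 and 1.23 in siR-1, and 1.75, 0.931 and 1.21 in siR-2 cells. Both siRNA groups lay below the Scrambled group and overlapped each other. Fmnl1 fell by 1.21 with siR-1 (SE 0.214, adjusted p = 0.000204) and by 1.27 with siR-2 (SE 0.214, adjusted p = 8.79e-05). In TGF-β cells it fell with siR-2 (-1.15 ± 0.190, adjusted p = 0.000156), from 2.86 to 4.10 CPM down to 1.34 to 1.65. With siR-1 the TGF-β change was -0.45 ± 0.185 (adjusted p = 0.0937), and -0.62 (adjusted p = 0.0477) without siR-1 replicate 3. The 6 leukocyte and macrophage markers summed to 54.6 to 59.0 CPM in untreated Scrambled cells. In untreated siR-1 cells the sum was 57.0 to 60.1 CPM and in untreated siR-2 cells 72.8 to 75.5 CPM. Its part in the fall of Fmnl1 in untreated cells was not tested. In TGF-β cells the sum, mostly Lyz2, was 157.6 to 166.2 CPM with Scrambled. It was lower with both siRNAs, at 127.8 to 142.5 in siR-1 and 141.4 to 149.4 in siR-2 cells. Of the 6 genes, 0 rose and 3 fell with siR-1, and 1 rose and 2 fell with siR-2. Csf1r stood higher with siR-2, at 15.6 to 17.1 CPM against 10.3 to 13.15 with Scrambled. The part of these markers in the fall of Fmnl1 there was not tested. Fmnl1 shares 120 exon bases with an antisense gene, and whether the counting used strand is not given in the sources used here.

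Diaph1 and Diaph2 separated the siRNAs. Diaph1, which builds stress fibres, was at 86.9, 84.2 and 82.2 CPM with Scrambled in untreated cells, 89.4, 85.9 and 90.5 in siR-1, and 139, 141 and 136 in siR-2 cells. The siR-1 range overlapped the Scrambled range, and the siR-2 libraries stood well above both. Diaph1 rose with siR-2 by 0.70 ± 0.0342 (adjusted p = 2.63e-11), while the siR-1 difference was 0.060 ± 0.0342 (adjusted p = 0.189). The siRNAs differed by 0.64 ± 0.0342 (adjusted p = 1.44e-10). In TGF-β cells the siR-2 effect differed by -0.59 ± 0.0547 (adjusted p = 9.62e-09), leaving 0.14 ± 0.0443 (adjusted p = 0.0271), and that call was lost without siR-2 replicate 1 or 3 or Scrambled replicate 2 or 3 (adjusted p from 0.0627 to 0.122).

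Diaph2, a relative of Diaph1 on the X chromosome, went in opposite directions with the siRNAs. In untreated cells it was at 41.9, 46.3 and 37.2 CPM with Scrambled, 53.5, 50.02 and 51.1 in siR-1, and 27.04, 28.2 and 27.01 in siR-2 cells. It rose with siR-1 by 0.29 ± 0.0632 (adjusted p = 0.00119) and fell by 0.62 with siR-2 (SE 0.0639, adjusted p = 3.34e-07). Neither change passed under TGF-β, where the values were 0.15 ± 0.0624 (adjusted p = 0.108) and -0.063 ± 0.0625 (adjusted p = 0.521), and without Scrambled replicate 2 the first was 0.24 (adjusted p = 0.00276). The siR-2 effect differed between the media by 0.54 ± 0.0965 (adjusted p = 0.000106).

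Daam1, the more abundant Daam gene, also parted the siRNAs in untreated cells. It was at 122, 130.3 and 122 CPM with Scrambled, 103, 103 and 106 in siR-1, and 152, 153 and 139.8 in siR-2 cells, with no overlap between the ranges. Daam1 fell by 0.27 with siR-1 (SE 0.0382, adjusted p = 1.83e-05) and rose by 0.24 ± 0.0381 with siR-2 (adjusted p = 5.44e-05). Under TGF-β it rose with both, by 0.17 ± 0.0415 (adjusted p = 0.00601) and 0.14 ± 0.0415 (adjusted p = 0.0168), and the siR-1 effect differed between the media by 0.44 ± 0.0594 (adjusted p = 6.18e-06). The siR-2 call under TGF-β was lost without siR-2 replicate 1 or 2 or Scrambled replicate 1 (adjusted p = 0.0567, 0.0939 and 0.0872).

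Fmnl2 and Fmnl3 extend lamellipodia and filopodia. Fmnl2 fell with siR-1 in untreated cells (-0.29 ± 0.0564, adjusted p = 0.000423), from 22.6 to 24.1 CPM down to 18.9 to 19.99. Under TGF-β it rose with siR-1 (0.31 ± 0.0644, adjusted p = 0.00173), from 15.3 to 17.6 CPM up to 19.7 to 20.5, and the difference between the media was 0.60 ± 0.0845 (adjusted p = 1.04e-05). With siR-2 it was -0.11 ± 0.0562 in untreated cells (adjusted p = 0.119) and 0.20 ± 0.0645 under TGF-β (adjusted p = 0.025). That last call was lost without siR-2 replicate 1 or 2 or Scrambled replicate 1 or 3 (adjusted p from 0.0666 to 0.111). Fmnl3 changes were small: -0.12 ± 0.034 with siR-1 and -0.18 ± 0.034 with siR-2 in untreated cells (adjusted p = 0.00715 and 0.000223). Under TGF-β they were -0.29 ± 0.0518 with siR-1 (adjusted p = 0.000555) and -0.036 ± 0.0517 with siR-2, which did not pass (adjusted p = 0.686). Fmn1, known from limb development, rose with siR-1 in untreated cells by 0.39 ± 0.071 (adjusted p = 0.00107), from 74.8 to 91.0 CPM up to 109 to 113. Its rise with siR-1 under TGF-β, 0.19 ± 0.0546 (adjusted p = 0.0175), did not pass without siR-1 replicate 1 or Scrambled replicate 1 (adjusted p = 0.107 and 0.0872), and with siR-2 it was within 0.087 ± 0.071 of Scrambled in both media. Fmn1 shares 449 and 31 exon bases with 2 antisense genes, with the same limit on strand as for Fmnl1.

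**Figure D2:**
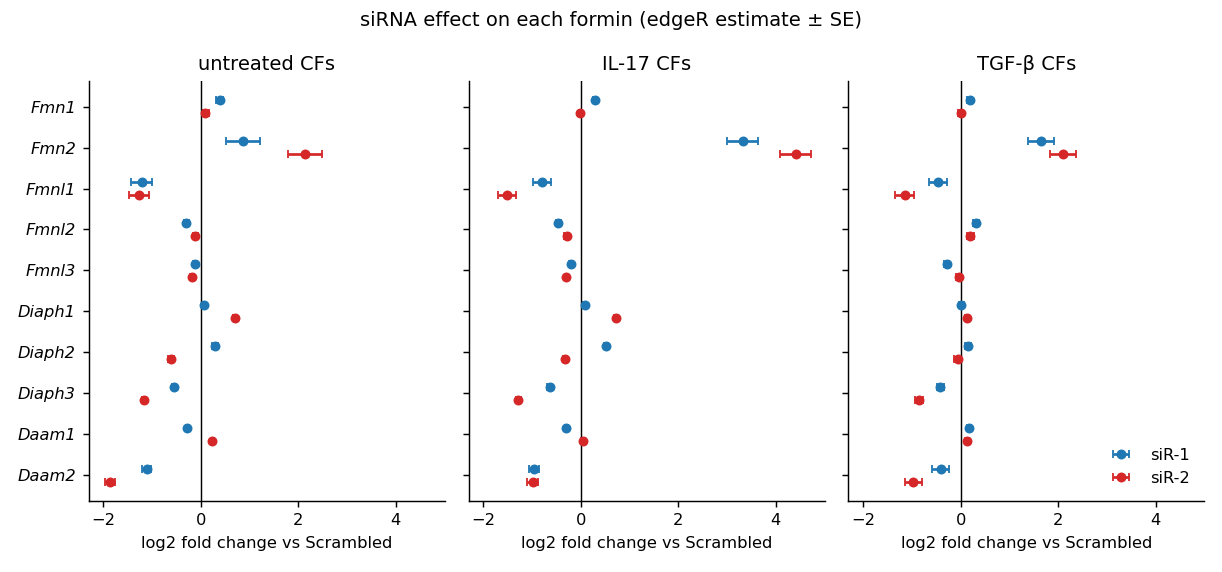
Log2 fold change of each formin against Scrambled (horizontal axis) in untreated, IL-17 and TGF-β CFs, siR-1 in blue and siR-2 in red. Points are edgeR estimates and bars their SE: Fmn2 lies to the right of 0 in all 3 panels, Diaph3, Daam2 and Fmnl1 to the left, and Diaph1 apart for siR-2 at 0.70 in untreated cells. The IL-17 estimates of Fmn2 rest on Scrambled counts under the floor.

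Counted together in untreated cells, 3 of the 10 formins lay wholly above Scrambled with siR-1 and 6 wholly below, where 24.8% of the 19669 genes tested lay above and 24.8% below. With siR-2 these counts were 3 and 5, against 28.6% and 28.3%. At an adjusted p of at most 0.05, 8 formins changed in siR-1 and 8 in siR-2 cells, where the shares over all genes were 39.9% and 49.3%. Under TGF-β, 6 and 7 changed, beside 23.1% and 29.9% of all 19891 genes. With a log2 change of at least 1 besides, 2 formins were called with siR-1 (Fmnl1 and Daam2) against 4.76% of all genes, and 4 with siR-2 (Fmn2, Fmnl1, Diaph3 and Daam2) against 10.7%. Under TGF-β, with a change of at least 1.5-fold, Fmn2 alone was called with siR-1 (4.36% of genes; Fmnl1 as well without siR-1 replicate 3) and Fmn2, Fmnl1, Diaph3 and Daam2 with siR-2 (7.51%). In TGF-β cells 4 formins lay wholly above Scrambled and 3 wholly below, with each siRNA, where 18.9% and 18.1% of genes did so in siR-1 and 20.9% and 19.9% in siR-2 cells. Between the media, 3 formins differed in their siR-1 effect and 5 in their siR-2 effect at that adjusted p, beside 19.6% and 30.2% of the 21508 genes tested. The fall of 4930523C07Rik was itself shallower under TGF-β, by 0.73 for siR-1 and 1.03 for siR-2 (log2), and its part in these differences was not tested. The median formin change was -0.20 and -0.15 in untreated cells with siR-1 and siR-2, and 0.082 and -0.017 under TGF-β. The tests of siR-1 and siR-2 share their Scrambled libraries.

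In IL-17 cells the contrast with Scrambled was the one that chose Fmn2, so the other formins are given there as values only. Diaph3 differed from Scrambled by -0.64 in siR-1 and -1.28 in siR-2 cells, Daam2 by -0.96 and -0.98, and Fmnl1 by -0.79 and -1.51. Diaph1 was 0.080 and 0.72 higher, Diaph2 0.52 and -0.33 from Scrambled, and the remaining 4 were within -0.46 and 0.30. As a description only, with Fmn2 itself among them, 4 formins met the call rule in siR-1 and 5 in siR-2 cells, where 13.5% and 21.7% of the 19906 genes did, and nothing is read from these counts. Of the formins other than Fmn2, the largest difference between the siRNA effect under IL-17 and that in untreated cells was 0.89 ± 0.139, for Daam2 with siR-2.

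Formin levels in Scrambled cells also differed between the media. Since each medium has a table of its own, medium and table cannot be told apart. Against untreated cells, TGF-β cells had less Diaph3 (-1.89 ± 0.061, adjusted p = 2.4e-18) and Daam2 (-1.70 ± 0.136, adjusted p = 7.68e-11), and more Fmn2 (1.06 ± 0.310, adjusted p = 0.00484). The Fmn2 difference rests on about 7.5 to 8.33 read pairs per library under TGF-β and 3.83 to 4.5 untreated, near the floor. It missed the threshold in the edgeR fit with the replicate number as a block (adjusted p = 0.0508). Fmn1, Fmnl2, Fmnl3, Diaph1 and Daam1 were lower by -0.42 to -0.57, each past the threshold, and Fmnl1 and Diaph2 were at 0.087 and -0.024. At a log2 change of at least 1 this makes 3 formins called, against 21.5% of the 21508 genes tested, and the median formin change was -0.50 against 0.0285 over all genes. The 19 cell cycle genes again fell together, with a median of -2.17. Marker sums differed in the same comparison, and their part was not tested: from untreated to TGF-β Scrambled cells the leukocyte sum went from 54.6 to 59.0 up to 157.6 to 166.2 CPM (5 of 6 genes higher), the endothelial sum from 42.9 to 48.0 up to 77.8 to 79.8 (4 of 5 higher), and the cardiomyocyte sum from 89.6 to 97.7 down to 4.71 to 5.42. The count of 3 became 2 without untreated Scrambled replicate 1.

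IL-17 against untreated Scrambled cells is described with no test. Fmnl2 was at 62.5, 64.9 and 68.5 CPM with IL-17 and at 24.1, 24.0 and 22.6 without it, a log2 difference of 1.47. Daam1 was at 220.9 to 221.4 CPM with IL-17 and 122 to 130.3 without it, a difference of 0.82. Daam2 was lower with IL-17, at 6.60 to 7.52 against 11.5 to 12.2 CPM, and Diaph3 did not separate, at 95.1 to 102.5 against 95.9 to 98.1.

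**Figure D3:**
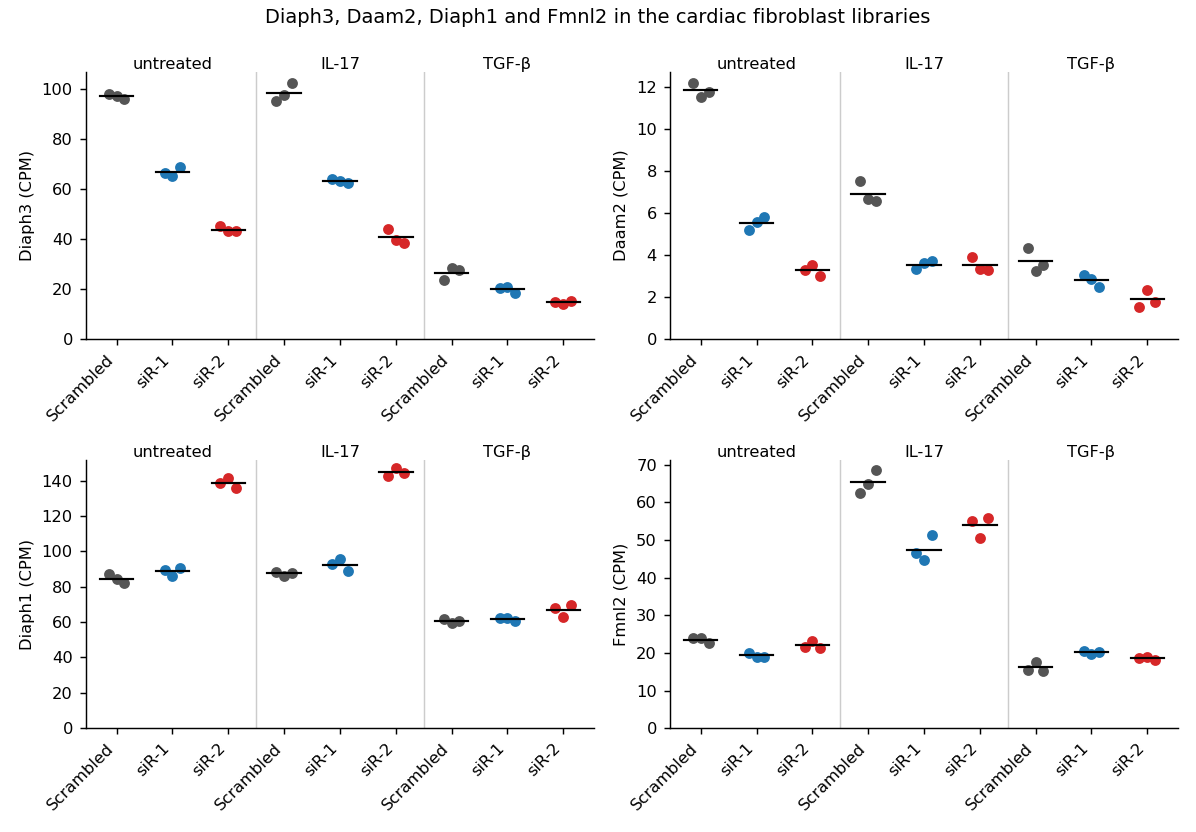
Levels of Diaph3, Daam2, Diaph1 and Fmnl2 in CPM (vertical axes, from 0) in the 27 CF libraries by medium and siRNA; points are libraries and bars group means. Diaph3 steps down from Scrambled to siR-1 to siR-2 in each medium, Diaph1 is highest with siR-2 in untreated cells (136 to 141 CPM) and in IL-17 cells, and Fmnl2 is highest with IL-17.

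By level per kb of exon, Fmnl3 led the family in untreated Scrambled cells at 26.6 CPM per kb. Diaph3 (17.4), Daam1 (15.4), Diaph1 (13.3), Fmn1 (5.4995), Fmnl2 (4.18), Diaph2 (3.62), Daam2 (1.21), Fmnl1 (0.636) and Fmn2 (0.0254) followed. Only Fmnl2 and Diaph2 overlapped among neighbours in that order. In IL-17 Scrambled cells Daam1 came first at 27.3 and Fmnl2 stood at 11.6, and in TGF-β Scrambled cells Fmnl3 came first at 18.6 with Diaph3 down at 4.79. The 10 formins summed to 85.9 to 89.3 CPM per kb in untreated, 101.5 to 104.9 in IL-17 and 55.2 to 57.3 in TGF-β Scrambled cells. In knockdown libraries of untreated cells that sum was 78.2 to 80.6 in siR-1 and 83.2 to 86.6 in siR-2 cells.

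**Figure D4:**
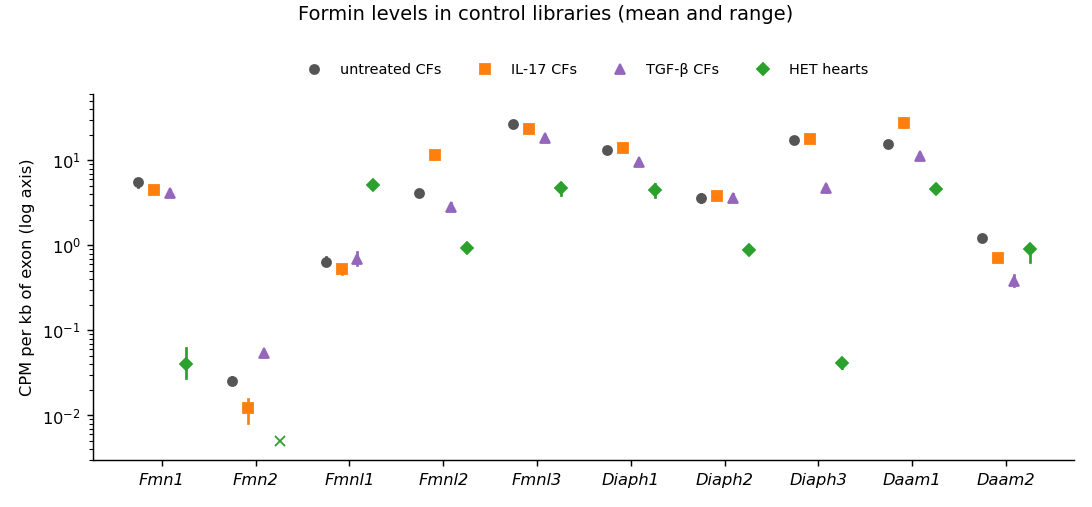
Level of each formin in CPM per kb of exon (vertical log axis) in Scrambled CFs of the 3 media and in HET hearts; symbols are group means and lines the range over libraries. Fmnl3, Daam1, Diaph1 and Diaph3 lead in untreated CFs at 13.3 to 26.6, Fmn2 is lowest throughout, and the cross marks Fmn2 at 0 in HET hearts, placed at the foot of the axis.

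Hearts held another mix. Fmnl1 (5.19 CPM per kb), Fmnl3 (4.77), Daam1 (4.65) and Diaph1 (4.51) led in HET hearts with overlapping ranges, and Fmnl2, Daam2 and Diaph2 followed at 0.921, 0.907 and 0.894. Diaph3 (0.0414) and Fmn1 (0.0405) were near the limit of counting. Fmn2 was at 0 counts in all 4 HET hearts and at 2, 2, 3 and 2 counts in the KO hearts, none above the floor of 3, so no fold is given. In the KO hearts the 8 formins that passed the filter on low counts differed from HET by at most 0.17 ± 0.0843 (Fmnl2). Fmnl2 was at 5.35, 5.49, 4.97 and 4.94 CPM in HET and 5.65, 5.55, 5.72 and 6.38 in KO, the 1 formin of 8 whose genotypes did not overlap, where 2.39% of the 16675 genes tested did not. By edgeR 0 of the 8 were called, 0 had an unadjusted p under 0.05, DESeq2 called 0, and 0% of all genes were called by edgeR. The hearts were mostly cardiomyocyte RNA, with Myh6 at 16180 to 17760 CPM in HET and Col1a1 at 101 to 152.

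Formins outside the 10 and their partners were read from fixed lists. Of the 4 further formins Fhod1 and Fhod3 fell with both siRNAs in untreated cells (Fhod1 by 0.92 and 0.47, Fhod3 by 0.91 and 0.95 on the log2 scale), and Inf2 and Grid2ip did not pass with either. Under TGF-β, Fhod1 alone fell with both.

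Of 22 other nucleation genes 21 were tested in untreated cells, and 5 rose and 8 fell with siR-1 and 7 rose and 5 fell with siR-2. Actr2, an actin-related subunit of Arp2/3, rose with both siRNAs by 0.83 and 0.89 in untreated and by 0.78 and 0.84 in TGF-β cells. Among 13 tested profilins, actins and actin binders, 1 rose and 7 fell with siR-1 and 4 rose and 6 fell with siR-2 in untreated cells. Tmsb4x, which holds monomeric actin, fell by 0.48 and 0.51. Under TGF-β the same list gave 0 up and 6 down with siR-1 and 3 up and 3 down with siR-2, and Acta2, the smooth muscle actin of myofibroblasts, fell by 0.63 and 1.03. Of the SRF and MRTF list, 16 genes, under TGF-β 11 fell in siR-1 and 13 in siR-2 cells and 0 rose, with medians of -0.30 and -0.33. Its members Cnn1 (-1.03 and -1.98) and Myl9 (-0.92 and -1.37), contractile proteins, fell most. In untreated cells that list gave 7 up and 5 down with siR-1 and 1 up and 13 down with siR-2, with medians of 0.040 and -0.26. These lists are described by their counts, beside the shares of all genes that rose and fell in the same tests: 19.5% and 20.4% in siR-1 and 24.4% and 25% in siR-2 cells in untreated cells, and 11.7%, 11.4%, 15.1% and 14.8% under TGF-β.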

How the data were processed

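Poly(A) RNA from CFs and hearts was sequenced on BGIseq/MGIseq libraries. Per the submitters' processing notes and the methods, the authors trimmed reads with cutadapt, aligned them to GRCm38 with HISAT2, quantified genes with StringTie and tested with DESeq2. The annotation release, strand setting and the step to whole numbers are not given in the sources used here. The deposited heart values are raw counts per gene. The deposited CF values are whole but were read as estimated counts, because 6 is the most frequent value among genes seen in a single library. Estimated counts carry less information than their size, and a fit on counts divided by 6 was among the alternatives.

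Each table was fitted whole with edgeR 4.0.16 (R 4.3.3; filterByExpr, TMM, robust quasi-likelihood F test, Benjamini-Hochberg over all genes), with all groups of a table in the fit. Differences between media used 18 libraries and 6 groups. "Rose" and "fell" mean an adjusted p of at most 0.05. A call also needs a log2 change of at least 1 (untreated, hearts, differences between media) or a 1.5-fold change (IL-17, TGF-β). The study states fold limits for untreated and IL-17 cells. It states none for TGF-β cells or hearts, so theirs were chosen here. CPM uses TMM library sizes, and exon lengths come from GENCODE vM21. DESeq2 1.42.0 was an alternative. The pipeline was tested on simulated data.

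The columns name siRNAs by codes that the TGF-β sample descriptions pair with si-IAMP-1 and si-IAMP-2. Heart columns name only the genotype. The chi-square per gene between libraries of a group was at least 2.02, so no library was a copy. All 10 formins, the 5 genes most like Fmn2 and Diaph3, and up to 2 genes per list and table with the largest mean change past the threshold were named. The marker lists were used for cell types. The members and lists were chosen with earlier results of these data known. Amino acid sequences are not used here, and 1 gene list is not reported here. The count floors cover counting error only.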

Additional observations from a re-analysis of the deposited data

Results flagged for a closer look

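The effect of an siRNA under TGF-β differed from its effect in untreated cells for these formins, by the interaction test of edgeR at an adjusted p of at most 0.05. With siR-1 the differences were 0.6 for Fmnl2 (19.3 ± 0.601 against 23.5 ± 0.846 CPM untreated, and 20.1 ± 0.354 against 16.2 ± 1.28 under TGF-β; SD, n = 3), 0.439 for Daam1 and 0.691 for Daam2. With siR-2 they were 0.293 for Fmnl2, -0.585 for Diaph1, 0.537 for Diaph2, 0.288 for Diaph3 and 0.873 for Daam2. Of all 21508 genes tested, 19.6% with siR-1 and 30.2% with siR-2 differed by the same test. None of the 10 formins reached a difference of 1 with all libraries in the fit. At an unadjusted p under 0.05, 5 of the 10 formins differed with siR-1 and 5 with siR-2, beside 29.2% and 38% of all genes. The knockdown itself was shallower under TGF-β, by 0.73 ± 0.155 with siR-1 and 1.03 ± 0.159 with siR-2 on the 4930523C07Rik transcript, and the part of this in the differences was not tested.

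In hearts, 1 KO library stood apart in Fmn2 with a gap of 0.927 of the group's range. That library held 3 counts and the others 2 each, so the gap is 1 count. Chance flags about 1 in 20 groups of continuous values, and that rate does not hold for small tied counts such as these.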

How the results depend on the processing

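The counts of formins called were 2 and 4 (siR-1, siR-2) in untreated, 4 and 5 in IL-17 and 1 and 4 in TGF-β cells. The IL-17 counts are a description, since that contrast chose Fmn2, which is among them. Without a fold limit they became 8 and 8, 9 and 8, and 6 and 7, and for the differences between media 3 (IL-17, siR-2), 3 and 5 (TGF-β, siR-1 and siR-2), and 8 for TGF-β against untreated Scrambled cells. Of all genes, 42.3% and 50.6% met the IL-17 rule without a fold limit, 1.89% the IL-17 siR-2 difference and 57.3% the TGF-β comparison. Of the 3 formins with an IL-17 siR-2 difference, Diaph2 lost the call in 10 and Daam1 in 9 of 12 fits with 1 library left out, and Daam2 in 0. Fmn2 is left out of these 3, and they too are a description, since the IL-17 libraries chose the family. With a log2 change of at least 1 in place of 1.5-fold, the counts became 1 and 3 in IL-17 cells and 2 in TGF-β cells with siR-2. The shares of all genes were 5.82%, 11.3% and 2.95%. Leaving out 1 library gave 1 to 2 in TGF-β cells with siR-1 (2 without siR-1 replicate 3), 0 to 1 for the siR-2 difference under TGF-β (1 without siR-2 or Scrambled replicate 1), 2 to 3 for TGF-β against untreated and 2 to 3 in untreated cells with siR-1. The mean Fmn2 level was 0.0824 to 0.112 CPM in IL-17, 0.416 to 0.44 in TGF-β and 0.191 to 0.208 in untreated Scrambled cells.

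Values near 0 changed sign. Fmn1 with siR-2 in IL-17 cells became 0.00197 (RLE), 0.00334 (no filter) and 0.00197 (DESeq2), and in TGF-β cells -0.00373 (RLE, DESeq2), -2.63e-05 (10 counts in every library) and -0.0118 (compared groups alone). With 1 library left out, the ranges that crossed 0 were -0.0388 to 0.00849 and -0.0627 to 0.0477 for these, -0.119 to 0.028 for Diaph2 and -0.102 to 0.00489 for Fmnl3 with siR-2 under TGF-β, -0.121 to 0.0543 for Diaph2 and -0.0776 to 0.193 for Fmnl1 in TGF-β against untreated cells, and in hearts -0.113 to 0.0818 for Daam2, -0.00971 to 0.160 for Diaph1, -0.205 to 0.237 for Fmn1, -0.124 to 0.0193 for Fmnl1 and -0.118 to 0.0244 for Fmnl3. Among differences between media they were -0.00565 to 0.0534 for Diaph1 and -0.425 to 0.0448 for Fmnl1 under IL-17 (siR-1, siR-2), and -0.171 to 0.00463 for Fmn1, -0.198 to 0.0386 for Fmn2 and -0.0861 to 0.377 for Fmnl1 under TGF-β with siR-2. The cause was not tested.

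The shared replicate numbers did not pair the CF samples: same-numbered samples of a table deviated together with r from -0.176 to 0.103, 1 of 27 above 0.1. With the replicate number as a block, the counts stayed at 2 and 4, 4 and 5, and 1 and 4, with 2 for TGF-β against untreated cells, where Fmn2 was at 1.01 (adjusted p = 0.0508) and Fmnl1 at -0.222. No paired analysis was possible for hearts because their columns carry no replicate number. Compared groups alone, Fmnl2, Diaph1 and Daam1 with siR-2 under TGF-β missed the threshold (adjusted p = 0.0667, 0.0826 and 0.0505). Depth limits Fmn2, at 1.33 to 4.5 read pairs in untreated and IL-17 Scrambled libraries, and Fmn1, Fmn2 and Diaph3 in hearts.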
